A study of Mus musculus with 2 samples.

Results

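Ptx3 Has1 Prg4 fibroblasts are described here, a class of collagen-expressing cells found among single cells of mouse dorsal skin. Their members were chosen by the RNA of 5 genes: Myoc, Ptx3, Fst, Has1 and Prg4. A cell counted as a fibroblast when Col1a1, Col1a2, Col3a1, Dcn and Lum together reached 100 UMIs per 10000, where a UMI stands for a distinct RNA molecule. For each fibroblast, the UMIs per 10000 of each gene were put on the scale log(1 + value) and summed over these 5 genes and over 3 further lists of 5 genes. A fibroblast was a member when the list of the 5 genes had the highest sum and at least 2 of them were detected. This selected 269 of 741 fibroblasts, a share of 36.3% (exact 95% binomial interval 32.8 to 39.9), out of 3797 cells that passed the filters and 5257 barcodes in all. The remaining 472 fibroblasts are called the other fibroblasts. They hold 259 Igfbp2 Grem1 Cyp26b1 fibroblasts and 127 Inmt Gdf10 C3 fibroblasts, chosen in the same way by their own lists, and 3 cells chosen by a list with Prlr and Crabp1. The rest met no class.

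Fascia is the sheet of loose connective tissue under the skin. Its fibroblasts secrete hyaluronan, a long sugar polymer that binds water and lets layers glide, and proteins that lubricate or crosslink it. Has1 and Has2 are hyaluronan synthases, Ptx3 is a pentraxin that helps to crosslink hyaluronan and takes part in innate immunity, and Prg4 is lubricin, the boundary lubricant of joints. Fst is follistatin, which binds and blocks activin, and Myoc is myocilin, a secreted glycoprotein best known from the eye. Fibroblasts of loose connective tissue are also known to secrete chemokines and cytokines when they are stimulated.

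The cells came from male WT mice, with dorsal skin of 2 mice pooled at 9 weeks and of 2 mice pooled at 108 weeks, and no other genotype or treatment was given. Skin was digested with collagenase-A, Dispase-II and DNaseI for an hour, F4/80+MHCII-hi cells were sorted, and 1 library was made per age with 3' droplet chemistry. The deposited matrix marks the libraries by a barcode suffix, and no source used here ties a suffix to an age. They are therefore reported as library 1 and library 2, of unknown age, and no comparison of ages was made. Each library is a single pool, so that no p-value was computed, and all intervals cover counting error only.

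Among the members, 64 came from library 1 and 205 from library 2. Members made up 23.8% of the 269 fibroblasts of library 1 (18.8 to 29.3) and 43.4% of the 472 fibroblasts of library 2 (38.9 to 48.0). The members held 3588764 UMIs, with a median of 13017 UMIs and 3168 genes per cell against 13108 UMIs and 3286 genes in the other fibroblasts. Mitochondrial genes took a median of 3.11% of their UMIs against 3.995%. Depth was thus alike in both classes. The 4 class II genes Cd74, H2-Aa, H2-Ab1 and H2-Eb1 together had a median of 1.55 UMIs per 10000 in the members, against 530 in the 2011 kept cells that were not fibroblasts and held at least 50, called MHC class II high cells. Adgre1, which encodes F4/80, stood at 3.68 and 4.80 UMIs of the gene per 1000000 UMIs (CPM) in the members of library 1 and library 2. The members thus carried almost none of the RNA of the sort markers. A single barcode sequence occurred in both libraries, and 0 did among the kept cells. No doublet caller was run.

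**Figure D1:**
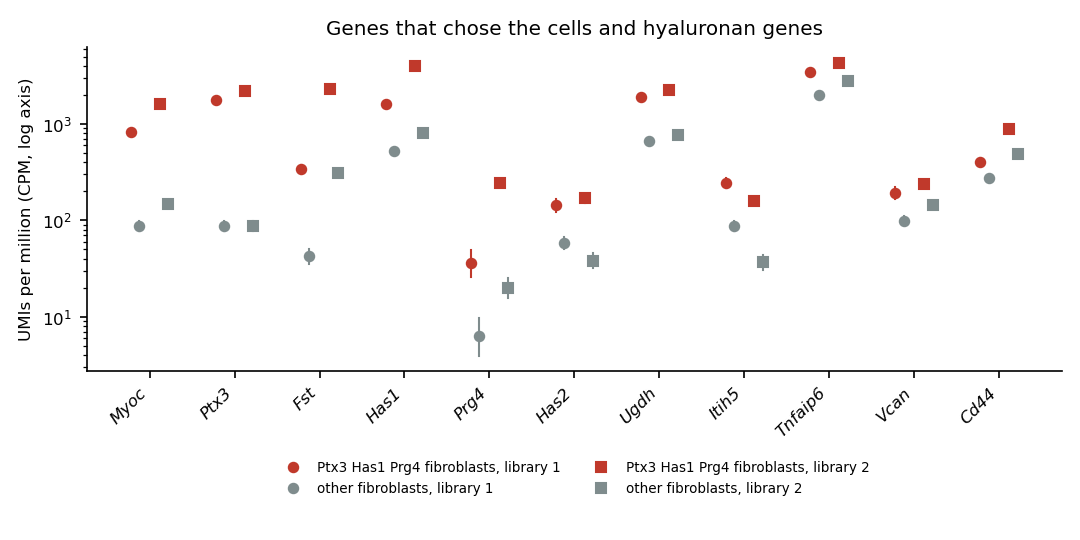
Levels of the 5 genes that chose the cells (left) and of 6 further hyaluronan genes, in CPM on a log axis. Circles are library 1, squares library 2, red the Ptx3 Has1 Prg4 fibroblasts, grey the other fibroblasts, and bars exact 95% Poisson intervals. Red lies above grey for all 11 genes in both libraries, with Ptx3 furthest apart.

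The 5 genes that chose the cells are given as a description, since the rule fixed their direction. Ptx3 stood at 1754 CPM in the members of library 1 and 2194 CPM in those of library 2, against 87.1 and 87.6 CPM in the other fibroblasts. Has1 stood at 1625 and 3973 CPM, against 528 and 808 CPM. Prg4 stood at 35.9 and 242 CPM, against 6.29 and 19.96 CPM. Prg4 was thus the sparsest of the 5 in cells as well, with a UMI in 84 of 269 members, while Has1 had a UMI in 251, Fst in 215, Ptx3 in 209 and Myoc in 181. Myoc stood at 819 and 1629 CPM, against 86.8 and 148 CPM. Fst stood at 338 and 2284 CPM, against 42.2 and 313 CPM. Both classes held more Fst in library 2, so that the ratio between the classes was alike in the libraries while the level was not.

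In GRCm38 and GENCODE vM21, Ptx3 lies at chr3:66219910-66225805 (plus strand), Has1 at chr17:17843323-17855205 (minus), Prg4 at chr1:150449412-150466165 (minus), Myoc at chr1:162639155-162649693 (plus) and Fst at chr13:114452290-114458951 (minus). Members often held several of these genes, as 105 members had 4 of them and 40 had all 5. The most common combination was Myoc, Ptx3, Fst and Has1 without Prg4, in 74 cells. At the edge of the rule, the smallest margin of a member's sum over the next list was 0.029, with 45 members within 1 of the edge and 44 cells within 1 of it on the other side. A further 38 fibroblasts were led by the 5 genes with only 1 of them detected. On the collagen gate, the lowest member had 100.1 UMIs per 10000 and the highest cell left out 97.0, and 47 cells led by the 5 genes lay under the gate.

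When each of the 5 genes was left out of the rule in turn, its level in the cells that the others chose was still higher than in the remaining fibroblasts. The pooled log2 ratio was 2.93 for Prg4 (2.67 to 3.20), 2.74 for Fst (2.66 to 2.81), 2.62 for Ptx3 (2.55 to 2.69), 1.99 for Has1 (1.94 to 2.03) and 1.78 for Myoc (1.71 to 1.86). Within the libraries these ratios ran from 1.56 for Myoc in library 2 to 2.65 for Prg4 in library 2. The same cells served to choose the list, so that these values are a description too.

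Shares of cells were compared at equal depth. After each cell was thinned to 2000 UMIs, which left 256 members and 442 other fibroblasts, Ptx3 was detected in 60.5% of members (54.3 to 66.6) and 7.69% of other fibroblasts (5.39 to 10.6). In the MHC class II high cells the thinned share was 0.103%. Without thinning the shares were 77.7%, 13.8% and 1.99%, at median depths of 13017, 13108 and 11255 UMIs. Has1 was detected in 85.2% of thinned members (80.2 to 89.3), 38.2% of other fibroblasts (33.7 to 43.0) and 0.823% of MHC class II high cells.

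Over all genes, 9096 had at least 50 UMIs in the fibroblasts. A gene was called higher when its log2 ratio of CPM, members over other fibroblasts, was 1 or more in each library, and lower when it was -1 or less in each. This called 196 genes higher, or 2.15% of those tested, and 255 genes lower, or 2.8%. The median ratio over all genes tested was 0.013. In library 1 alone 296 genes had a ratio of 1 or more and 280 of -1 or less, in library 2 alone 295 and 527 did, and with a collagen gate of 300, which left 85 members, 129 genes were called higher and 175 lower. The members were selected on these same cells, so that no count of calls against the other fibroblasts is a test, and each is set beside the 2.15% and 2.8% of all genes as a description only.

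**Figure D2:**
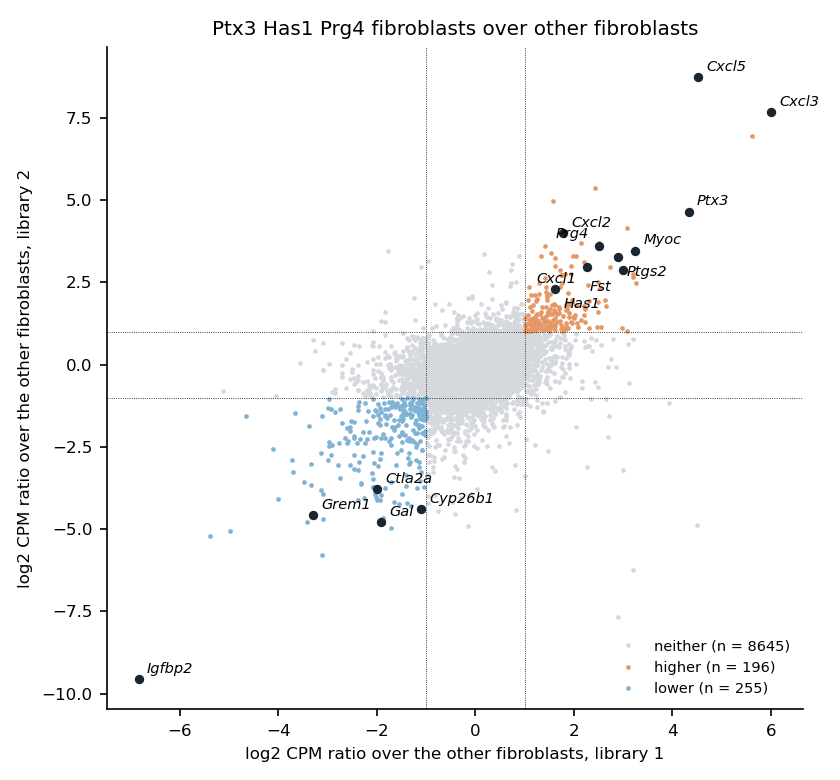
Log2 ratio of CPM, Ptx3 Has1 Prg4 fibroblasts over other fibroblasts, in library 1 (x axis) and library 2 (y axis), with 1 point per gene tested. Orange points are the 196 genes called higher, blue points the 255 called lower, dotted lines mark a ratio of 1 and -1, and black points are named genes. Cxcl5 and Cxcl3 lie at the top right and Igfbp2 at the bottom left.

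The 15 highest genes that reached 100 CPM held the 5 genes of the rule, the chemokines Cxcl5, Cxcl3, Cxcl2 and Cxcl1, and Ptgs2, Gm12840, Il33, Hmcn2, Plac8 and F3. Gm12840 is a long non-coding RNA, and its reads were not checked for neighbours on the other strand. It stood at 490 and 553 CPM in the members of library 1 and library 2, against 106 and 64.3 CPM. F3, tissue factor, which starts coagulation, stood at 227 and 350 CPM, against 62.0 and 76.9 CPM. Hmcn2, hemicentin 2, a large extracellular matrix protein, stood at 170 and 169 CPM, against 34.7 and 31.3 CPM. All 3 were higher than in the other fibroblasts in both libraries, at pooled log2 ratios of 2.65, 2.17 and 2.36. Against the Inmt Gdf10 C3 fibroblasts alone these ratios were 0.88, 0.38 and 0.45, and none of the 3 was called.

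Hyaluronan genes were higher in the members than in the other fibroblasts. Of 15 listed genes, 9 could be tested, 5 were called higher and 0 lower, with a median log2 ratio of 1.57 against 0.013 over all genes. Has1 and Ptx3 are among the 5 and belong to the rule. Against the Inmt Gdf10 C3 fibroblasts alone, 1 of the 9 was called higher, the rule gene Ptx3, with a median of 0.83. Outside it, Has2 stood at 143 and 169 CPM in the members of library 1 and library 2, against 58.4 and 38.1 CPM (pooled log2 ratio 1.74, 1.54 to 1.94). Ugdh, which makes the UDP-glucuronate that hyaluronan synthases use, stood at 1890 and 2237 CPM, against 662 and 763 CPM (1.58, 1.53 to 1.63). Has2 and Ugdh were thus higher in both libraries. Itih5, a member of the family of heavy chains that attach to hyaluronan, stood at 243 and 160 CPM, against 88.0 and 36.9 CPM (1.57, 1.39 to 1.75).

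The hyaluronan genes that were not called had positive ratios. Tnfaip6, or TSG-6, which transfers heavy chains to hyaluronan, stood at 3426 and 4345 CPM, against 1990 and 2807 CPM. Vcan, the hyaluronan-binding proteoglycan versican, stood at 191 and 238 CPM, against 99.1 and 146 CPM. Cd44, the main hyaluronan receptor, stood at 401 and 888 CPM, against 276 and 486 CPM. Has3, Itih2, Cemip and Hmmr were at 0 UMIs in the members. The plot of rule and hyaluronan genes shows these levels side by side.

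Secreted immune mediators had the highest median of the lists that did not choose the cells. Of 22 genes, 21 were found and 18 could be tested, 9 were called higher and 0 lower, with a median log2 ratio of 1.76. Summed over the list, the members held 17230 CPM in library 1 and 38811 CPM in library 2, against 5738 and 10363 CPM in the other fibroblasts. The list holds chemokines that draw neutrophils through Cxcr2. Cxcl1 stood at 3430 and 10226.5 CPM, against 715 and 1303 CPM (3.02, 2.98 to 3.05). Cxcl2 stood at 1205 and 3901 CPM, against 352 and 246 CPM (3.37, 3.30 to 3.44). Cxcl1 was found in 233 of 269 members and Cxcl2 in 168. The median member had 49.5 UMIs of Cxcl1 per 10000 and the 90th percentile was 222, while for Cxcl2 these were 1.39 and 84.9, so that the level of Cxcl2 was uneven among the members.

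Cxcl5 and Cxcl3 had the highest ratios of all named genes but had UMIs in few cells. Cxcl5 stood at 13.8 and 507 CPM, against 0.599 and 1.19 CPM (8.64, 7.52 to 10.1). It had UMIs in 21 members, 17 of them in library 2, and 54.0% of its 1284 UMIs came from 3 cells. Without those 3 cells the pooled log2 ratio was 7.55, and with a collagen gate of 30 in place of 100, which let other cells into the comparison, it was 4.30. Cxcl3 stood at 38.6 and 183 CPM, against 0.599 and 0.894 CPM (7.54, 6.31 to 9.17). It had UMIs in 18 members, a single cell held 51.4% of its UMIs, and without the 3 cells that held most of it the ratio was 5.50. The MHC class II high cells held Cxcl3 as well, at 123 CPM against 139 CPM in the members of both libraries pooled. There it had UMIs in 403 of 2011 cells, so that Cxcl3 was not confined to the fibroblasts. Cxcl5 stood at 1.86 CPM in those cells. Their part in the Cxcl3 of the members was not tested.

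The members also held more of the monocyte-drawing chemokines. Ccl2 stood at 4787 and 8612 CPM, against 1325 and 2651 CPM (1.91, 1.87 to 1.94). Ccl7 stood at 3820 and 8695 CPM, against 1265 and 2768 CPM (1.84, 1.81 to 1.87). The MHC class II high cells held both as well, at 1258 and 1637 CPM, and Cxcl2 at 3323 CPM, so that these chemokines were also found outside the fibroblasts.

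Cytokines and the prostaglandin enzyme followed the same direction. Il6 stood at 1074 and 1387 CPM, against 294 and 378 CPM (1.94, 1.87 to 2.01). Ptgs2, or COX-2, the inducible enzyme of prostaglandin synthesis, stood at 561 and 1436 CPM, against 74.8 and 150 CPM (3.38, 3.26 to 3.49). Il33, an alarmin that is held in the nucleus, stood at 80.0 and 335 CPM, against 32.6 and 59.9 CPM (2.48, 2.29 to 2.67). Tslp, a cytokine that acts on dendritic cells, was low everywhere, at 13.8 and 12.0 CPM against 1.497 and 1.79 CPM. In each of these 4 genes both libraries had the members above the other fibroblasts. Against the Inmt Gdf10 C3 fibroblasts alone, Il33 had a log2 ratio of -1.12 in library 1 and 0.72 in library 2.

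Not every mediator passed the call as higher. Csf1, the growth factor of macrophages, stood at 978 and 1152 CPM, against 723 and 914 CPM. Cxcl12 stood at 388 and 391 CPM, against 135 and 364 CPM, so that the difference of library 1 was not seen in library 2. Lif differed in the opposite way, at 85.5 and 409 CPM against 111 and 164 CPM. Cxcl13, which draws B cells, was lower in the members, at 14.7 and 34.8 CPM against 19.2 and 174 CPM, and did not pass the call. Serpina3n was also lower without passing it, at 200 and 163 CPM against 386 and 491 CPM.

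**Figure D3:**
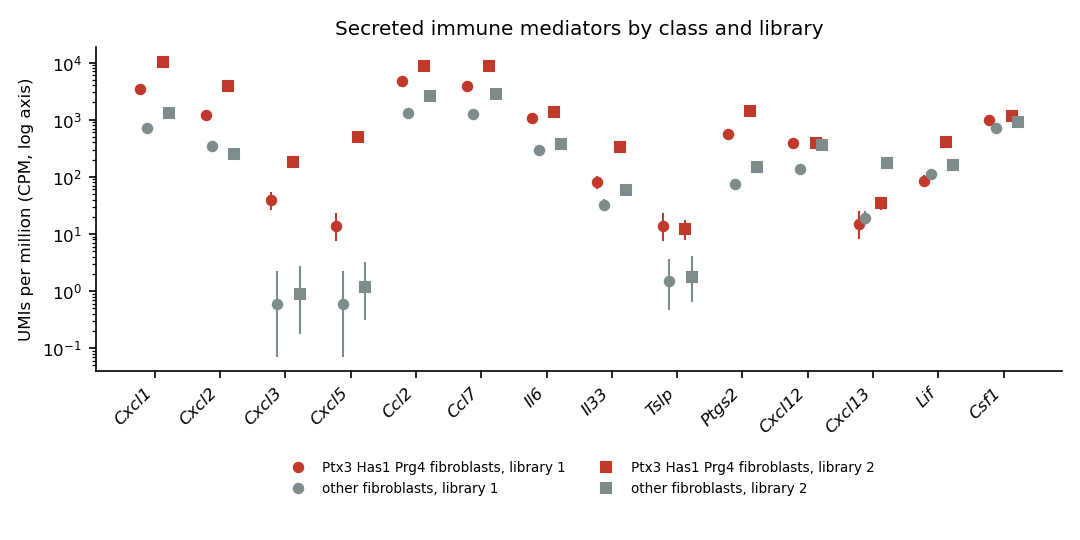
Levels of 14 genes of secreted mediators in CPM on a log axis, by class (red, Ptx3 Has1 Prg4 fibroblasts; grey, other fibroblasts) and library (circles, library 1; squares, library 2), with exact 95% Poisson intervals. From Cxcl1 to Ptgs2 red lies above grey in both libraries. Cxcl12 and Csf1 have red above grey with a small gap for Cxcl12 in library 2, Cxcl13 has red below grey in both, and Lif changes order between the libraries.

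Promoters were searched because chemokine and cytokine genes were higher together. Of 19 genes looked up, the 15 highest and Il6, Ccl2, Ccl7 and Has2, 12 had an entry in the RefSeq promoter table (GRCm38.p6, 250 bases before to 50 after the start), and Fst, Prg4, Cxcl5, Gm12840, Ccl2, Ccl7 and Has2 had none. The letters searched on both strands were TATAAA, GGG followed by any 2 bases and TTTCC (a form of the kB motif of NF-kB factors), TGANTCA (AP-1), TGACGTCA (CRE) and CACGTG (E box). The kB letters were found in 4 of the 12 genes: Cxcl1, Cxcl2, Cxcl3 and Il6. TATAAA was found in 4, TGANTCA in 3, TGACGTCA in 1 and CACGTG in 2. Of all 32851 promoters, 1.63% held them, while TATAAA was in 13.6%, TGANTCA in 7.81%, TGACGTCA in 1.79% and CACGTG in 7.15%. Windows of 150 bases, from 130 before the start to 20 after it, are shown for these 4, each on the plus strand of chromosome 5 and written 5′ to 3′, with the kB letters in capitals.
Cxcl1, chr5:90891115-90891264: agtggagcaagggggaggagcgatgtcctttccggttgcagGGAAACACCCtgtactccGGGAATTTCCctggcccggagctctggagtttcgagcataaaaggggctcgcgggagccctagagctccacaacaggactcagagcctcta
Cxcl2, chr5:90903769-90903918: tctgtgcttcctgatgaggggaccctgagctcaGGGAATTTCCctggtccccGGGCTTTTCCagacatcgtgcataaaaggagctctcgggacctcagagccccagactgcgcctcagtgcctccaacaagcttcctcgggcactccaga
Cxcl3, chr5:90785971-90786120: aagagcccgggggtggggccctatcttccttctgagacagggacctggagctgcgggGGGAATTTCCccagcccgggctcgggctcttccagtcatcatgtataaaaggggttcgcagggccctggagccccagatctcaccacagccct
Il6, chr5:30012984-30013133: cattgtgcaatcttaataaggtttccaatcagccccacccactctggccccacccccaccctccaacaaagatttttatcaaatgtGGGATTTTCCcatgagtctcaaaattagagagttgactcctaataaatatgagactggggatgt
In Cxcl1 and Cxcl2 the letters occurred 2 times each, with the first at -89 and -97 from the start, and in Cxcl3 and Il6 they occurred a single time, at -73 and -44. The 3 chemokine genes lie close together on chromosome 5 and are related in sequence, so that they are not independent examples. A match is a description of these letters and no evidence that a factor was bound.

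The label fascia-like was checked against a list of 20 genes of fascia and adventitial fibroblasts. Of 19 tested, 8 were called higher and 0 lower, with a median log2 ratio of 0.81. Gpx3, a secreted glutathione peroxidase, stood at 2721 and 3493 CPM, against 1178 and 805 CPM (1.72, 1.67 to 1.76). Plac8 stood at 172 and 510 CPM, against 60.5 and 116 CPM (2.21, 2.07 to 2.35), and the MHC class II high cells held it at 230 CPM. Efhd1 stood at 28.5 and 18.8 CPM, against 9.88 and 1.79 CPM (1.90, 1.33 to 2.49). Wnt2, a Wnt ligand, stood at 30.3 and 15.2 CPM, against 9.28 and 2.09 CPM (1.80, 1.21 to 2.41). Sema3c, Anxa3, Procr and Mfap5 were the other 4 called.

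The best-known markers of such fibroblasts were present but less distinct. Pi16 stood at 815 and 777 CPM in the members, against 368 and 531 CPM. Dpp4 stood at 143 and 149 CPM, against 75.4 and 104 CPM, and neither passed the call. Against the Igfbp2 Grem1 Cyp26b1 fibroblasts alone, 9 of the 19 genes were called higher, where 4.13% of all genes were. Against the Inmt Gdf10 C3 fibroblasts 0 were called in either direction, where 1.1% of all genes were called higher and 1.54% lower. With so few calls among all genes, that 0 is no result about the list. The median log2 ratio of the list was 1.12 against the former class and 0.20 against the latter.

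Lists of other connective tissue cells were mixed. Of 12 genes of papillary dermal fibroblasts, which lie under the epidermis, 9 could be tested, 5 were called lower and 0 higher, with a median log2 ratio of -2.29. Apcdd1, an inhibitor of Wnt signalling, stood at 42.3 and 7.60 CPM, against 159 and 117 CPM, and Axin2, a target of that pathway, at 2.76 and 1.20 CPM, against 14.4 and 11.0 CPM. Trps1, Rspo1 and Col23a1 were the other 3. Against the Igfbp2 Grem1 Cyp26b1 fibroblasts alone, 4 of 7 papillary genes were called lower, where 3.12% of all genes were. Against the Inmt Gdf10 C3 fibroblasts 0 of 5 were called in either direction, where 1.1% of all genes were called higher and 1.54% lower. The median log2 ratio of the list was -2.20 against the former class and -0.05 against the latter. Of 10 reticular dermal genes, 9 could be tested, 3 were called higher and 0 lower. These were Dpt, Col14a1 and Ptgis, with Ptgis, prostacyclin synthase, at 32.2 and 64.8 CPM against 7.78 and 6.55 CPM. The median of the reticular list was 1.32 against the Igfbp2 Grem1 Cyp26b1 fibroblasts and 0.31 against the Inmt Gdf10 C3 fibroblasts.

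Against the other fibroblasts as a whole, other genes of the joint lining were not called higher with Prg4. Of 9 genes of synovial lining fibroblasts, 6 could be tested, Prg4 was called higher and Thy1 lower, and Col22a1 was at 0. Against the Igfbp2 Grem1 Cyp26b1 fibroblasts alone, 5 could be tested, Cd55, Hbegf and Prg4 were called higher and Thy1 lower. There 4.13% of all genes were called higher and 3.12% lower. Against the Inmt Gdf10 C3 fibroblasts, 0 of 6 were called higher and Itga6 was called lower, where 1.1% and 1.54% of all genes were. Of 8 tendon genes, 4 could be tested and 0 were called. Scx, which defines tendon cells, stood at 2.76 and 0.400 CPM in the members. Of 12 genes of dermal papilla and sheath, 6 could be tested, and Bmp4 and Col11a1 were called lower. Of 9 genes of the adipocyte lineage, 6 could be tested and 0 were called.

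Few matrix genes passed the call, while the summed level of the collagen genes was lower in the members than in the other fibroblasts as a whole. Over the 18 collagen genes the members held 128276 and 13413 CPM in library 1 and library 2, against 188298 and 51347 CPM. Col1a1, Col1a2 and Col3a1, which served to gate the cells, are part of that sum. Of 18 collagen genes, 17 could be tested, 2 were called higher and 1 lower. Col8a1, a short-chain collagen, stood at 43.2 and 107 CPM, against 4.49 and 19.1 CPM (2.89, 2.53 to 3.27). Col14a1, a collagen that associates with fibrils, stood at 326 and 161 CPM, against 97.0 and 28.9 CPM (1.75, 1.57 to 1.92). Col16a1 was the lower member, at 149 and 64.8 CPM against 300 and 201 CPM. Col1a1, which served to gate the cells, stood at 49063 and 3718 CPM, against 82179 and 20294 CPM, and did not pass the call in library 1, where its log2 ratio was -0.74. In the Inmt Gdf10 C3 fibroblasts alone it stood at 20800 and 2294 CPM, below the members in both libraries. Of 17 collagen genes tested against that class, Col12a1 was called higher and 0 lower, where 1.1% and 1.54% of all genes were. The median log2 ratio of the list was 0.15 there.

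Among other matrix genes, 1 of 9 small leucine-rich proteoglycans was called higher and 0 lower. This was Ogn, osteoglycin, at 847 and 1098 CPM against 392.2 and 462 CPM. Of 16 elastic fibre genes, Emilin2 and Mfap5 were called higher and Fbln5 lower. Of 17 matricellular genes tested, Thbs1 and Fn1 were called higher and 0 lower. Thbs1, thrombospondin 1, which activates latent TGF-beta, stood at 715 and 3289 CPM, against 313 and 1359 CPM, and Fn1, fibronectin, at 1836 and 1094 CPM, against 736 and 507 CPM.

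Of 17 genes of matrix proteases and their inhibitors that were tested, 2 were called higher and 1 lower. Timp1, an inhibitor of metalloproteinases, stood at 187 and 527 CPM, against 68.6 and 126 CPM (2.12, 1.99 to 2.26). Adamts5, a protease that cleaves aggrecan and versican, stood at 390 and 340 CPM, against 176 and 134 CPM (1.19, 1.07 to 1.31). Mmp3, stromelysin 1, was lower, at 502 and 282 CPM against 1154 and 733 CPM (-1.44, -1.52 to -1.35). An inhibitor was thus higher and the protease stromelysin lower, while an aggrecanase was higher.

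In the BMP, activin and TGF-beta pathways, 27 of 28 genes could be tested, 1 was called higher and 7 lower. The higher one was Fst, which belongs to the rule. Grem1, an inhibitor of BMPs, stood at 5.52 and 17.2 CPM in the members, against 54.5 and 409 CPM (-4.09, -4.53 to -3.68), and belongs to the list that chose another class. Gdf15, a stress-induced member of the TGF-beta family, stood at 80.0 and 41.6 CPM, against 343 and 404 CPM (-2.81, -3.03 to -2.60). The others were Fstl3, Inhbb, Bmp4, Nbl1 and Ltbp2. Fst and Grem1 belong to lists that chose cells, so that their direction is no independent result. The inhibitors Fstl3 and Nbl1 were lower.

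Wnt genes were split as well. Of 11 tested, Wnt2, Sfrp1 and Sfrp2 were called higher and Wnt5a, Sfrp5, Dkk2, Dkk3 and Rspo1 lower. Dkk2 belongs to a list that chose another class. Sfrp1, a secreted inhibitor of Wnt ligands, stood at 158 and 264 CPM, against 63.5 and 90.8 CPM. Wnt5a, a ligand of the non-canonical branch, stood at 8.27 and 9.60 CPM, against 40.4 and 65.8 CPM. Sfrp5 had UMIs in only 2 members.

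Growth factors, receptors and binding proteins gave short lists. Among the growth factors tested, Vegfd, Fgf2 and Fgf18 were called higher and Il34 lower. Vegfd, a lymphatic growth factor, stood at 46.0 and 51.6 CPM, against 18.6 and 22.6 CPM. Of 18 receptors tested, Il1r1, Il13ra1 and Gpc3 were called higher and Thy1 lower. Il1r1, the receptor of interleukin 1, stood at 253 and 281 CPM, against 83.2 and 121 CPM (1.42, 1.27 to 1.56). Of 6 IGF binding proteins, Igfbp3 was called higher, at 599 and 742 CPM against 218 and 262 CPM, and Igfbp2 lower.

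Further lists held few calls. Of 10 complement genes tested, Clu was called higher and 0 lower. Of 10 genes of metallothioneins and oxidative stress, Gpx3 was called higher. Of 8 retinoid genes, Aldh1a3 was called higher and Crabp1 and Cyp26b1 lower. The latter pair belong to lists that chose other classes, so that their direction is no independent result. Of 20 mesenchymal transcription factors, Osr2 and Meox2 were called lower and 0 higher, and of 7 contractile genes 0 were called. Of 23 immediate early and heat shock genes, 0 were called higher, where 2.15% of all genes were. Fos and Egr2 were called lower, where 2.8% of all genes were. Tissue digestion is known to induce such genes, and its part here was not tested. Fos stood at 694 and 912 CPM in the members, against 1685 and 1965 CPM. Their summed level was 16350 and 19797 CPM in the members, against 17150 and 21050 CPM.

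The genes with the lowest ratios over the other fibroblasts were Igfbp2, Grem1, Aldh3a1, Ctla2a, Cyp26b1, Apcdd1, Gal, Gdf15, Ndufa4l2 and Cdh4. Igfbp2 had 3 UMIs in the members, all in library 2, against 314 and 900 CPM in the other fibroblasts (-9.51, -11.8 to -7.96). Aldh3a1, an aldehyde dehydrogenase, stood at 10.1 and 8.00 CPM, against 85.6 and 122 CPM. Ctla2a, an inhibitor of cathepsins whose counts are uncertain because it has a close copy in Ctla2b, stood at 84.6 and 313 CPM, against 337 and 4314 CPM. Gal, the neuropeptide galanin, stood at 51.5 and 1.599 CPM, against 194 and 44.4 CPM. Ndufa4l2, which hypoxia is known to induce, stood at 193 and 22.4 CPM, against 628 and 268 CPM. Against the Inmt Gdf10 C3 fibroblasts alone, with both libraries pooled, Aldh3a1, Ctla2a, Apcdd1, Gal, Gdf15, Ndufa4l2 and Cdh4 were instead higher in the members. Ctla2a stood at 244 CPM against 60.9 CPM, Gdf15 at 53.2 against 17.5 CPM and Cdh4 at 30.7 against 5.54 CPM. Aldh3a1 and Gal had 1 UMI each in that class, and the interval of the Apcdd1 log2 ratio ran from -0.19 to 1.73. Igfbp2, Grem1 and Cyp26b1 belong to a list that chose another class, so that their direction is no independent result. The 5 genes of the list with Inmt, Gdf10 and C3 also chose another class. Their pooled log2 ratios in the members ran from 0.42 to 1.02, and 0 of them were called.

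Markers of other cells were present in the members at the levels that follow. The 13 macrophage and dendritic cell genes summed to 1657 and 607 CPM in the members of library 1 and library 2, to 1360 and 1390 CPM in the other fibroblasts, and to 73055 CPM in the MHC class II high cells. None of the 13 was at 0, 12 could be tested, and Csf1r alone was called, as lower. The 6 endothelial genes summed to 138 and 17.2 CPM with Cldn5 called higher, against 34.7 and 15.5 CPM in the other fibroblasts and 99.6 CPM in the MHC class II high cells. The 6 pericyte genes summed to 122 and 31.6 CPM, against 73.0 and 41.4 CPM and 44.0 CPM. The 6 Schwann cell genes summed to 423 and 11.6 CPM, against 92.8 and 248 CPM and 66.1 CPM. In library 1 the members were thus above the other fibroblasts in all 3 lists. The 6 keratinocyte genes summed to 40.5 and 21.2 CPM with Dsp at 0, against 28.1 and 28.0 CPM and 18.6 CPM, and the 6 genes of T cells and mast cells to 2.76 and 2.80 CPM with Cd3e and Cd3g at 0, against 1.80 and 14.6 CPM and 23.3 CPM. The part of these cells in the results was not tested. When the fibroblasts with 20 or more class II UMIs per 10000 were removed, 263 of 726 fibroblasts were members, and 188 genes were called higher and 260 lower.

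**Figure D4:**
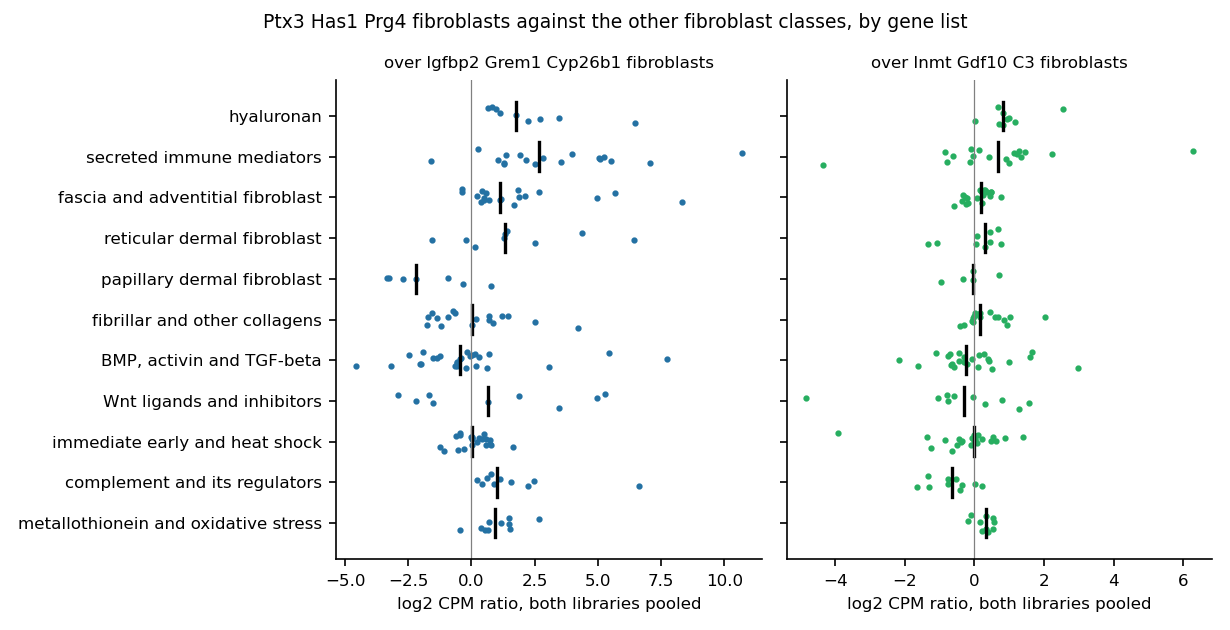
Log2 ratio of CPM of the Ptx3 Has1 Prg4 fibroblasts over the Igfbp2 Grem1 Cyp26b1 fibroblasts (left) and over the Inmt Gdf10 C3 fibroblasts (right), with both libraries pooled and 1 point per gene of each list with at least 50 UMIs. Black bars are medians. The lists spread widely on the left, with a median of 2.68 for secreted immune mediators, and lie closer to 0 on the right, where that median is 0.67.

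The other fibroblasts were mostly Igfbp2 Grem1 Cyp26b1 fibroblasts, so the members were set against each class alone. Against the Igfbp2 Grem1 Cyp26b1 fibroblasts, 351 of 8491 genes were called higher, or 4.13%, and 265 lower, or 3.12%. Of 18 secreted immune mediators, 13 were called higher, with a median log2 ratio of 2.68. Cxcl1 stood at 249 CPM in that class, with both libraries pooled, Ptgs2 at 25.6 CPM, Ptx3 at 23.0 CPM, Myoc at 14.5 CPM and Plac8 at 1.28 CPM. These genes were thus far lower there than in the members. Sult1e1, a sulfotransferase of oestrogens, had 379 UMIs in the members and 0 in that class, and Smpd3, a sphingomyelinase, 365 and 5.

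Against the Inmt Gdf10 C3 fibroblasts, fewer genes were called. Of 7026 genes tested, 77 were called higher, or 1.1%, and 108 lower, or 1.54%. Of the 5 genes of the rule only Ptx3 was called, at 2061 CPM in the members against 354 CPM (2.54, 2.39 to 2.69). Fst stood at 1694 CPM against 213 CPM (2.99, 2.80 to 3.19) and missed the call with a log2 ratio of 0.96 in library 1. Of 18 secreted immune mediators, Cxcl5 and Tslp were called higher and Cxcl13 lower, with a median of 0.67. Has1 stood at 1439 CPM in the Inmt Gdf10 C3 fibroblasts, Myoc at 564 CPM, Cxcl1 at 4320 CPM, Ccl2 at 3737 CPM, Ptgs2 at 530 CPM and Plac8 at 527 CPM. Each of these 6 genes was thus present in this class too, and none passed the call between the classes, although 5 of them, all but Plac8, had a log2 ratio above 1 in library 2. Its cells were shallower, with a median of 7827 UMIs and 1083053 UMIs in all.

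The genes that did differ between the members and the Inmt Gdf10 C3 fibroblasts were of several kinds. Cxcl5 and Cxcl3 were higher in the members, with 5 and 2 UMIs in the other class. Thbs2, thrombospondin 2, stood at 514 CPM against 126 CPM (2.02, 1.77 to 2.28), and Col12a1, a collagen of tension-bearing tissue, at 108 CPM against 26.8 CPM (2.02, 1.47 to 2.61). Hif1a stood at 252 CPM against 72.9 CPM, Fosl1 at 218 CPM against 83.1 CPM, and Ccn1, a matricellular protein, at 1079 CPM against 419 CPM. Lyz2, a gene of macrophages, was also higher, at 161 CPM against 38.8 CPM.

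On the lower side, Cxcl13 stood at 28.7 CPM in the members against 590 CPM in the Inmt Gdf10 C3 fibroblasts (-4.36, -4.68 to -4.06). Sfrp5 stood at 3.90 CPM against 112 CPM, and Itgb4, an integrin subunit of hemidesmosomes, at 2.79 CPM against 110 CPM. Apoe, a lipid carrier, stood at 340 CPM against 1026 CPM. In each of these genes both libraries had the same direction.

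Whole profiles were also compared without the 25 genes that gated or classed the cells. Among the 15 nearest fibroblasts of each member, 70.5% were members on average, where members are 36.3% of fibroblasts, 13.8% were Inmt Gdf10 C3 fibroblasts, which are 17.1% of fibroblasts, and 11.6% were Igfbp2 Grem1 Cyp26b1 fibroblasts, which are 34.95%. Of the neighbours of Inmt Gdf10 C3 fibroblasts, 40.5% were members, with 45.1% against a base of 23.8% within library 1 and 35.8% against a base of 43.4% within library 2. Of those of Igfbp2 Grem1 Cyp26b1 fibroblasts, 9.16% were. Within library 1 the share of members among the neighbours of members was 49.1%, against a base of 23.8%, and within library 2 it was 77.7%, against 43.4%. In both libraries members were thus more frequent among their own neighbours than among all fibroblasts.

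Clustering of the fibroblasts on the same profiles gave 8 clusters. A single cluster held 134 of the 269 members and only 16 other cells, with 123 of these members from library 2 and 11 from library 1. A smaller cluster, led by Akr1c18, Dmkn and Sbsn, held 25 members among 35 cells, 11 from library 1 and 14 from library 2. Another, led by Cthrc1, C6 and Postn, held 25 members, all from library 1, among 83 cells. The other members lay in clusters that were mostly of other classes. Of these members, 35 lay in a cluster of 124 cells that also held 77 Inmt Gdf10 C3 fibroblasts, with 11 of the 35 from library 1. A cluster that is mostly of a single library may be that library and not a kind of cell, and no cluster was named.

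The members varied among themselves in the mediators. Il6 was detected in 196 members and not in 73, at median depths of 13493 and 12205 UMIs, with 48 and 16 of these cells in library 1 and 148 and 57 in library 2. In library 1, Cxcl1 stood at 4309 CPM in the members with Il6 and 859 CPM in those without. In library 2 it stood at 13395 and 1244 CPM. Ptgs2 stood at 733 and 57.8 CPM in library 1 and at 1914 and 81.3 CPM in library 2. Cxcl1 and Ptgs2 were thus higher in the cells with Il6 in each library. Cxcl12 went the other way, at 327 and 567 CPM in library 1 and at 326 and 578 CPM in library 2.

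Ptx3 and Has1 of the rule differed along the same split. Ptx3 stood at 2056 CPM in members with Il6 and 870 CPM in those without in library 1, and at 2775 and 549 CPM in library 2. Has1 stood at 1819 and 1058 CPM in library 1, and at 5006 and 1044 CPM in library 2. Myoc and Fst did not follow them in both libraries. Myoc stood at 805 and 859 CPM in library 1 and at 1522 and 1932 CPM in library 2. Fst stood at 321 and 389.9 CPM in library 1 and at 2681 and 1159 CPM in library 2. Timp1 stood at 221 and 86.6 CPM, and at 685 and 79.7 CPM. Thbs1 differed less, at 766 and 567 CPM in library 1 and 3388 and 3007 CPM in library 2. Cxcl1 was also set against the number of detected rule genes, with the libraries pooled. Members with 2 of the 5 genes held 1960 CPM of Cxcl1, those with 3 held 7229 CPM, those with 4 held 9304 CPM and those with all 5 held 14045 CPM, at median depths from 12149 to 14651 UMIs. Members of library 2 were more frequent among those with 5 genes and held more Cxcl1, at 10226.5 CPM against 3430 CPM in library 1. The library and the number of genes can therefore not be told apart in these values.

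Collagen went the other way along that order. Col1a1 stood at 36725 CPM in members with 2 rule genes, at 29560 CPM with 3, at 5277 CPM with 4 and at 2998 CPM with 5. Library 2 supplied 28 of 52 members with 2 genes and 36 of 40 with 5, and its members were lower in Col1a1, so that the library and the number of genes cannot be told apart in these pooled values.

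Prg4-positive members were 13 in library 1 and 71 in library 2. Timp1 stood at 971 CPM in those of library 2 and 235 CPM in the Prg4-negative members, while in library 1 it stood at 190 and 186 CPM. Thbs1 stood at 4762 and 2320 CPM in library 2, and at 1557 and 454 CPM in library 1. F3 stood at 453 and 282 CPM in library 2, and at 322 and 198 CPM in library 1. Thbs1 and F3 were thus higher in Prg4-positive members of both libraries, and Timp1 in those of library 2.

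**Figure D5:**
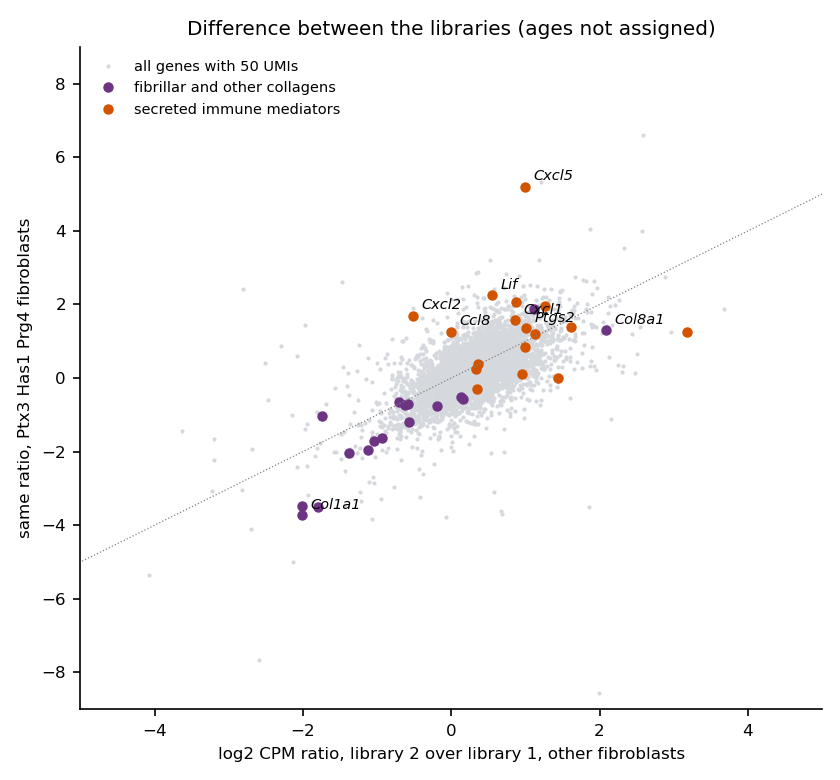
Log2 ratio of CPM, library 2 over library 1, in the other fibroblasts (x axis) and in the Ptx3 Has1 Prg4 fibroblasts (y axis), for genes with at least 50 UMIs in the latter. Purple points are collagen genes, orange points secreted immune mediators, and the dotted line marks equal ratios. Collagens lie mostly below 0 on both axes, and mediators mostly above 0.

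The libraries differed within the members, and the difference cannot be tied to an age. Of 6151 genes with at least 50 UMIs in the members, 646 had a log2 ratio of library 2 over library 1 of 1 or more, or 10.5%, and 231 of -1 or less, or 3.76%, around a median of 0.21. In the other fibroblasts 207 of the 646 (32.0%) passed the same limit, where 397 passed it in all, and 58 of the 231 (25.1%) did, where 83 passed in all. Part of these differences was therefore seen in the other fibroblasts too, and they compare 2 libraries and not 2 conditions.

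Mediators were higher in the members of library 2. Of 17 tested, 11 passed the limit and 0 were lower, with a median log2 ratio of 1.26 in the members and 0.96 in the other fibroblasts. Cxcl5 had a ratio of 5.201 (4.47 to 6.04), Lif of 2.26 (1.95 to 2.58), Il33 of 2.07 and Cxcl2 of 1.69, while Cxcl2 had -0.52 in the other fibroblasts. Il1rl1, the receptor of interleukin 33, stood at 19.3 CPM in the members of library 1 and 140 CPM in those of library 2, against 15.9 and 19.96 CPM in the other fibroblasts. Ccn2, a target of TGF-beta and of YAP, had 2 UMIs in the members of library 1 and stood at 180 CPM in those of library 2 (6.61, 4.75 to 9.66).

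Collagens were lower in the members of library 2. Of 17 tested, 9 passed the limit as lower and Col8a1 and Col12a1 as higher. Col1a1 had a log2 ratio of -3.72 (-3.75 to -3.69), Col1a2 of -3.51 and Col3a1 of -3.49, against -2.02, -1.80 and -2.01 in the other fibroblasts. The median collagen gate sum per 10000 was 762 in members of library 1 and 187 in those of library 2. C1qtnf6 had a ratio of -4.10 and Cpz, a carboxypeptidase that binds Wnt ligands, of -3.44. Of the genes with the lowest ratios, Fabp4 (-3.76) and Cxcl9 (-3.51) had 52.9% and 70.8% of their UMIs in a single cell. Of 9 macrophage genes tested, 6 passed the limit as lower in library 2 and C1qa as higher, and the part of other cells in these differences was not tested.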

How the data were processed

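The authors counted UMIs with Cell Ranger 4.0.0 against mm10, per the submitters' processing notes, and deposited both libraries as 1 matrix of raw counts for 32285 genes. The unit is whole counts without normalization, and no filter before deposit is named in the labels or methods. Here, kept cells had 500 genes or more, 1000 UMIs or more and a mitochondrial share of up to 10%. UMIs were summed per class and library and scaled to 1000000 UMIs (CPM), with exact 95% Poisson, binomial or conditional ratio intervals, which cover counting error only. A sum of 0 was set to a floor of 3 counts in ratios. Genes needed 50 UMIs, and a call needed a log2 ratio of 1 in each library. Python 3.11.15, numpy 2.4.6, scipy 1.17.1, scikit-learn 1.9.0, leidenalg 0.10.2 and igraph 0.11.9 were used, with 2000 variable genes, 20 components, 15 neighbours and resolution 1. The code was tested on simulated counts.

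The members and lists were chosen with earlier results of these data known. Named genes were the 5 rule genes, the 15 highest and 10 lowest called genes at 100 CPM, called list members (up to 4 per list and direction, others by name), and the 8 largest differences between libraries in each direction. Genes named against the 2 other fibroblast classes, or in splits of the members, were chosen after their values were seen. Alternatives changed the filters, gate, rule, library, weighting and scaling. No paired or age comparison was made, as each age has 1 library and suffixes are not tied to ages. Gene identifiers were matched to GENCODE vM21 for 32158 of 32285. Some genes that these rules select are not reported here.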

Additional observations from a re-analysis of the deposited data

Results flagged for a closer look

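In 2 genes of the marker lists the members differed from the other fibroblasts in opposite directions in the libraries, and the difference between the libraries was not tested. Mbp, a gene of myelin, had a log2 ratio of 1.01 in library 1 and -3.37 in library 2. Its levels in the members were 88.3 and 6.80 CPM, against 43.7 and 70.3 CPM in the other fibroblasts. Thbs4, thrombospondin 4, which is expressed in tendon, had a log2 ratio of 1.38 in library 1 and -1.42 in library 2. Its levels were 201 and 21.6 CPM in the members, against 77.5 and 57.8 CPM. In the Inmt Gdf10 C3 fibroblasts Thbs4 stood at 200 CPM with both libraries pooled, and Mbp at 263 CPM.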

How the results depend on the processing

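The share of members among fibroblasts was 36.3%. It was 40.4% with a stricter filter on cells, 20.4% with a collagen gate of 300 (85 members), 29.3% when 3 rule genes were required, and 30.2% with a margin of 1. It was 29.8%, 28.7%, 28.5% and 25.4% when Myoc, Ptx3, Fst or Has1 was left out of the rule, 23.8% in library 1 alone and 43.4% in library 2 alone. The genes called higher, 196 in all, were 129 with the gate of 300, of which 78 were shared, 296 in library 1 alone, 295 in library 2 alone and 680 without a filter on genes. The genes called lower, 255 in all, were 527 in library 2 alone and 396 without that filter. Of all calls 43.5% were higher, against 63.2% without the filter, 32.7% when cells were weighted equally and 31.7% when Myoc was left out of the rule. The cause was not tested. The other settings kept the counts within 1.5 times. For 25 named genes, all 450 values over 18 alternatives kept their sign. A gate of 30 and leaving out the 3 cells with most UMIs of a gene were added after the data were seen. With 64 members in library 1, sparse genes such as Prg4 and Cxcl5 rest on few UMIs there. No paired analysis was possible because the libraries carry no replicate numbers and no age.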
